A study of Rattus norvegicus with 2 samples.

Results

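The enzymes that oxidise ethanol in rat liver were followed here by the 6 probes that carry the gene symbols Adh1, Adh4, Adh5, Adh6, Adh7 and Cyp2e1 on an Agilent one-colour array of 41012 probes, 6 of the 17108 genes named there. All 6 genes had exactly 1 probe under their symbol, so that no gene had a second probe of the same name to check it. Adh1 is now named Adh1c in RefSeq and is called so below. The deposited gene descriptions name 5 alcohol dehydrogenases and 1 cytochrome P450, which choosing the probes by symbol had fixed in advance.

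Liver RNA came from male Wistar rats of 22 weeks of age in which a fatty liver had been produced with 52% alcohol at 1% of body weight over 7 weeks. One group then received EEP, a preparation that the study's title describes as a propolis extract, dissolved in 50% ethanol, and the other received normal saline, each at 0.1% of body weight for 4 further weeks. The labels do not settle whether alcohol feeding went on during those 4 weeks. Liver RNA from 6 rats was combined within each group and every pool had a single array, which gives 2 arrays, no replicate and no p-value, and leaves the spread between animals unseen. The EEP solution held ethanol and the saline did not, so the extract and its ethanol cannot be told apart in any value below, and no group without alcohol was analysed here.

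Ethanol is oxidised to acetaldehyde along 2 main routes in the liver. Cytosolic alcohol dehydrogenases pass electrons to NAD, with the class I enzyme doing most of the work, while the microsomal cytochrome P450 CYP2E1 uses NADPH and oxygen, releases reactive oxygen species and is well known for being induced by ethanol, largely through stabilisation of the protein. Aldehyde dehydrogenases then turn acetaldehyde into acetate. In the rat the alcohol dehydrogenase genes stand side by side on chromosome 2, and Cyp2e1 lies on chromosome 1.

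Of the 6 genes, 3 were higher and 3 were lower in the EEP pool than in the saline pool, beside 52.4% and 47.5% of all 11915 genes that could be compared. Adh6 had by far the largest difference, with a clear signal in the saline pool and none above background in the EEP pool. Cyp2e1 was 2.09-fold and Adh7 1.78-fold higher in the EEP pool, and Adh4 was 1.88-fold lower. Adh1c and Adh5 differed by less than 1.5-fold. At least 2-fold higher was 1 member and at least 2-fold lower was 1 member, beside 3.58% and 5.09% of those 11915 genes, each of which was called detected in one pool or in both. Both shares use measured differences, also where 1 of the signals was not above background. Among 10979 genes with a probe detected on both arrays, as Cyp2e1 was, these shares were 1.75% and 2.69%. Values are the deposited normalised signals in log2 units, and every difference is the EEP value minus the saline value.

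**Figure D1:**
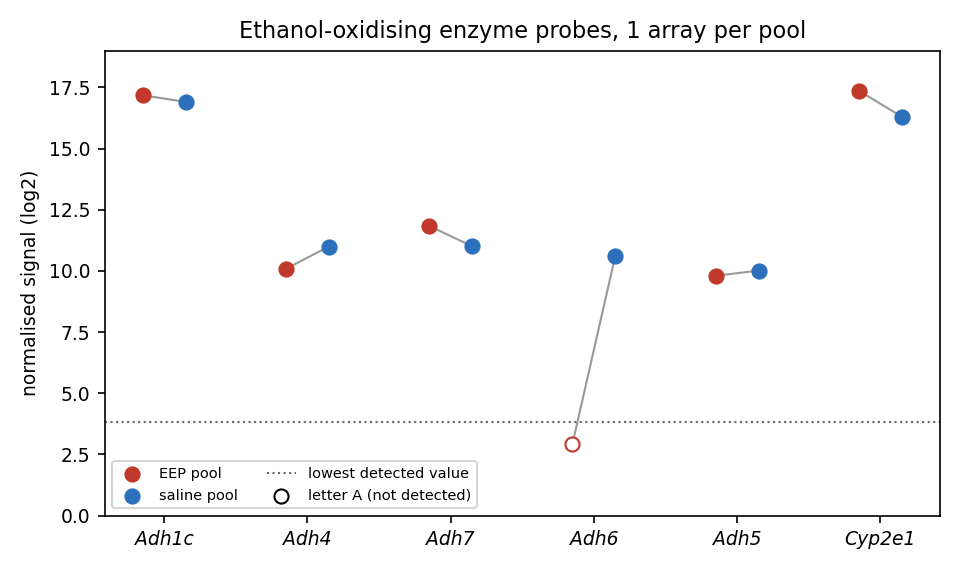
Normalised log2 signal (vertical axis) of the 6 probes in the EEP pool (left point of each pair) and the saline pool (right point), 1 array each, with open points for signals not called detected and a dotted line at the lowest detected value of the EEP array (3.83). Adh6 is at 2.91 in the EEP pool against 10.62 in the saline pool, while the other 5 genes are detected on both arrays.

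The array signals were also read against the spread between probes of one gene, which is the only error that 2 single arrays hold. Over 2596 genes for which 2 or more probes could be read in both pools, the robust SD of a probe's difference was 0.16 log2 units; it was 0.13 for mean signals of 9 to 12 (748 genes) and 0.10 for mean signals of 12 or more (238 genes). This spread covers probe and spot error and leaves out animals, pools and labelling reactions. The detection letter P was carried by 24380 probes on the EEP array and 24344 on the saline array, and the differences of all 11915 genes had a median of 0.02. The 7 hepatocyte markers read from 9.55 to 18.48 in the EEP pool and from 10.18 to 18.48 in the saline pool, lowest for Tat. Of these, 2 lay above 0 and 4 below. Albumin, Alb, one of the 2 above, read 18.08 in the EEP pool and 17.87 in the saline pool.

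Among the cytosolic dehydrogenases, Adh1c encodes the class I enzyme, which has a high affinity for ethanol. Its probe (A_44_P463843, chromosome 2 from 235810168 to 235810227 in the deposited coordinates, of a genome build that the sources used here do not give) read 17.18 in the EEP pool against 16.91 in the saline pool. The difference of 0.28 (1.21-fold) was 2.77 times the probe spread at that signal, but 18 of the 62 other genes with a mean signal within 0.5 of it lay at least as far above 0.

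Adh4 encodes the class II enzyme, which works at higher ethanol concentrations and also acts on retinol and fatty alcohols. It read 10.09 in the EEP pool against 11.00 in the saline pool, a difference of -0.91 (1.88-fold lower). That is 7.28 times the probe spread, and 16 of 1018 genes of similar signal (1.57%) lay at least as far below 0. Its probe (A_43_P11891) lies on chromosome 2 from 235970510 to 235970569.

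Adh7 encodes the class IV enzyme, best known from the stomach lining, where it oxidises ethanol and retinol. It read 11.84 in the EEP pool against 11.01 in the saline pool, a difference of 0.83 (1.78-fold higher), or 6.61 times the probe spread. Of 842 genes of similar signal, 13 (1.54%) lay at least as far above 0. Of 8 markers of gastric or duodenal tissue, 4 were detected on neither array, among them gastrokine genes Gkn1 and Gkn2, and the 4 detected lay between -0.68 and 0.14, among them Muc5ac, which was not above background in the EEP pool. The pepsinogen C gene Pgc, the brightest of them, read 9.68 in the EEP pool and 9.54 in the saline pool.

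Adh5 encodes the class III enzyme, which is found in nearly all tissues, prefers the glutathione adduct of formaldehyde, reduces S-nitrosoglutathione and adds little to ethanol oxidation. It read 9.80 in the EEP pool against 10.02 in the saline pool. The difference of -0.21 (1.16-fold lower) was 1.70 times the probe spread, and 197 of 1156 genes of similar signal (17%) lay at least as far below 0, so it was within the ordinary range of such genes.

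Cyp2e1, the microsomal ethanol oxidase, read 17.37 in the EEP pool against 16.30 in the saline pool, a difference of 1.06 (2.09-fold higher). This was 10.7 times the probe spread at high signal, and 1 of 69 genes of similar signal (1.45%) lay at least as far above 0. In the order of all 41012 probes its probe (A_44_P409232, chromosome 1 from 200927736 to 200927795) stood at place 60 on the EEP array and at place 164 on the saline array. The files mark no saturated spots and the highest value on either array is 18.57, so whether the scanner limit touched this fold was not tested. The array measures RNA, and the protein stabilisation for which CYP2E1 is known would not be seen in it.

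The first bases before the Cyp2e1 start are shown because its transcript had the highest difference of the 6. RefSeq places them at chr1:205269847-205269966 on the plus strand of assembly GRCr8, and capitals mark the motif TATAAA and the letters ATTGG, the reverse complement of the CCAAT motif.
Cyp2e1: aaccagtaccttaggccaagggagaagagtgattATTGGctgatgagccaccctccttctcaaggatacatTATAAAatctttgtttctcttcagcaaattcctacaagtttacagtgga
Within 250 bases before the start, on either strand, TATAAA was found for Cyp2e1, Adh4 and Adh6 and in 12.9% of 33469 rat promoters of that length. The Adh4 and Adh6 sequences printed below hold it only as TTTATA, its reverse complement, further from the start than in Cyp2e1. CCAAT was found for Cyp2e1, Adh1c, Adh4, Adh5 and Adh6 and in 34% of promoters, and GGGCGG, the GC box, for Adh5 and Adh7 and in 30.5%. Adh5 had a G and C content of 62.4%, against 38.8 to 42.8% for the other members and a median of 51.2% over all promoters.

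Adh6 encodes a class V dehydrogenase, known mainly as a liver transcript, whose part in ethanol oxidation is not well defined. Its probe (A_44_P199129, chromosome 2 from 235931239 to 235931298) read 2.91 with letter A in the EEP pool against 10.62 with letter P in the saline pool. Because the EEP signal was not above background, only a nominal bound can be given. Set against the lowest detected value of that array (3.83), Adh6 was 111-fold lower in the EEP pool. It was 28.3-fold lower once 50 signal units were added to both signals. The lowest detected value is not a detection limit for every probe, so neither fold is a guaranteed minimum. On the saline array, a probe of this cluster read 3.87 with letter A, above that array's lowest detected value of 3.83. The measured difference, -7.71, is not a fold of RNA. Detected in the saline pool only were 4.01% of the 11915 genes.

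A second look at the same place on chromosome 2 was taken after these values were seen. Between the Adh1 pseudogene probe and the Adh4 probe the array carries 3 neighbouring probes, and each had letter A in the EEP pool and letter P in the saline pool. The first (A_44_P562385, 235909484 to 235909543), which has no gene symbol, read 3.81 in the EEP pool against 11.12 in the saline pool. By the same nominal bound it was 157-fold lower. The deposited description of this probe reads cytochrome c oxidase, partial (3%), and names no alcohol dehydrogenase. The next (A_44_P344344, 235915733 to 235916423) is also without a symbol and is described in the file as a rat liver class VI alcohol dehydrogenase. It read 3.13 in the EEP pool against 8.54 in the saline pool, 26.2-fold lower by that nominal bound. The last of the 3 is the Adh6 probe itself. All 3 are placed on the plus strand within 21.8 kb, and whether they belong to 1 transcript was not tested, since no genome of the file's build was used here.

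The probes before the stretch had little or no signal to lose, so its start is not shown by them. The Adh1 pseudogene, named Adh1-ps1 in RefSeq, lies 22.6 kb before it and was detected on neither array (1.99 in the EEP pool, 1.98 in the saline pool). An unnamed probe just before that read 4.87 in the EEP pool and 4.93 in the saline pool. On the other side, Adh4 lies 39.2 kb after the stretch, with the difference of -0.91 given above. Over the 14 probes placed between 50 kb before Adh7 and 50 kb after Adh5, the 8 detected on both arrays ranged from -0.91 (Adh4) to 0.83 (Adh7). Adh6a, another class V gene of the cluster, was detected on neither array (1.85 in the EEP pool, 2.42 in the saline pool). Metap1, a methionyl aminopeptidase gene beside Adh5, read 8.77 in the EEP pool and 8.79 in the saline pool.

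**Figure D2:**
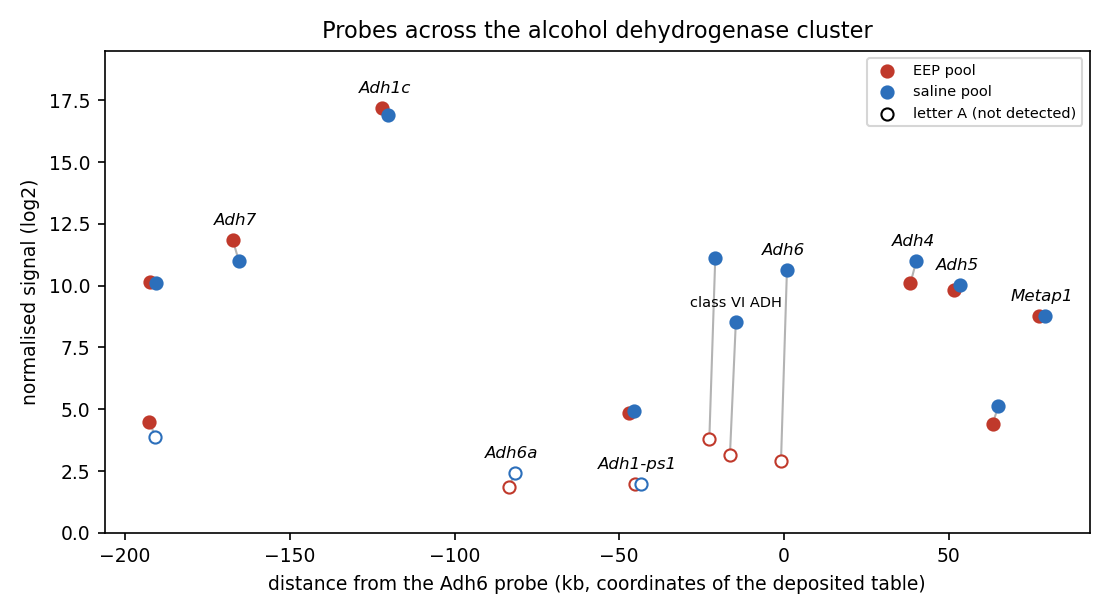
Normalised log2 signal (vertical axis) of the 14 probes across the alcohol dehydrogenase cluster by distance from the Adh6 probe in kb (horizontal axis), with the EEP pool just left of the saline pool at each probe and open points for signals not detected. The 3 neighbouring probes from the unnamed one to Adh6 read 2.91 to 3.81 in the EEP pool and 8.54 to 11.12 in the saline pool, while the 8 probes detected on both arrays differ by -0.91 to 0.83.

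The stretch was set beside the whole array. Of 41012 probes, 60 with letter P in the saline pool had a measured signal at least 16-fold lower in the EEP pool. That count takes EEP signals not above background as they stand, without the nominal bound. The lowest gene, detected on both arrays, differed by -10.07, further than Adh6. Of all probes, 1290 had letter P in the saline pool and not in the EEP pool, and 6 of these had a saline signal of 8.54 or more; the 3 probes of the stretch were among the 6. In the opposite direction, 1326 probes had P in the EEP pool and not in the saline pool, and 3 of them reached 8.54. With the 37147 placed probes in order along the chromosomes, 3 runs of at least 3 neighbours were detected in the saline pool only, and in 1 run, the one at Adh6, every saline signal reached 8.54. The longest saline-only run held 9 probes on chromosome 14, none with a gene symbol, at dimmer saline signals of 4.46 to 6.11. Another 3 runs were detected in the EEP pool only, none of them with all signals at 8.54 or more. Since the stretch set this level and was found by looking, the counts describe it and test nothing. Each pool holds RNA of 6 animals, and how many of them carried the transcript cannot be told from a pool.

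The sequences before the starts of Adh4 and Adh6 are shown because both genes were lower in the EEP pool, by very different amounts, and share nearly the same upstream sequence. In RefSeq, GRCr8, the stretch of Adh4 is chr2:229621842-229622084 and that of Adh6 is chr2:229576397-229576635, both on the plus strand, and capitals mark bases that differ or are missing in the other.
Adh6: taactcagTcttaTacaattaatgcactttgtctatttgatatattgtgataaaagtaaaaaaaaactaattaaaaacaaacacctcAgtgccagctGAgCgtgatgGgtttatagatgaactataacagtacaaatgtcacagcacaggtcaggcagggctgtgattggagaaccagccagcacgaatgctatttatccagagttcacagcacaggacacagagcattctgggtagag
Adh4: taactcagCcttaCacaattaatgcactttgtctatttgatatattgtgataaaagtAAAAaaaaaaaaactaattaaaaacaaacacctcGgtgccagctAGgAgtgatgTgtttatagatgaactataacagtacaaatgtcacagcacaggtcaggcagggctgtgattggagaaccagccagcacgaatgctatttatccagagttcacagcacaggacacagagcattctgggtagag
Over 243 aligned positions 232 bases were identical, 7 were different and 4 were present in Adh4 only, an identity of 95.5%. None of the other 14 pairs of members aligned over more than 28 positions. The identity holds for the annotated starts and says nothing of which start was used in these livers.

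**Figure D3:**
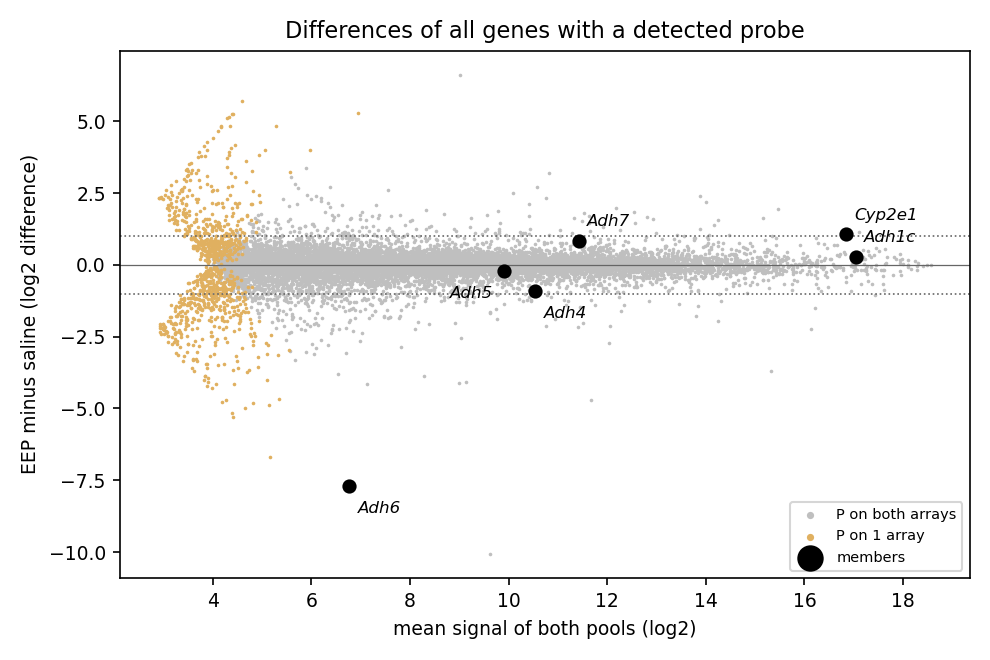
Log2 difference of the EEP pool minus the saline pool (vertical axis) against the mean log2 signal of both pools (horizontal axis) for 11915 genes, grey where detected on both arrays and ochre where detected on 1, with the 6 members in black and dotted lines at 2-fold. Adh6 lies below every other gene detected on 1 array, Cyp2e1 lies just above the upper line, and Adh1c and Adh5 lie inside the cloud.

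The genes next to the members in the pathway were read from lists chosen with earlier results of these data known. Of 7 aldehyde dehydrogenase genes, 6 were detected, 5 above 0 and 1 below, beside 52.4% and 47.5% of all genes. Their median was 0.10 beside 0.02 for all genes. Aldh7a1, counted above 0 at 0.01, differed by -0.15 by a second probe. Aldh1a1, a cytosolic enzyme of retinaldehyde and acetaldehyde, was 2.99-fold higher (13.72 in the EEP pool against 12.14 in the saline pool), and Aldh1b1, a mitochondrial enzyme, was 1.59-fold lower (6.12 in the EEP pool against 6.80 in the saline pool). Aldh9a1 differed by 0.39 and Aldh3a2, which oxidises fatty aldehydes, by 0.17, while Aldh2, the mitochondrial enzyme that clears most acetaldehyde, read 15.91 in the EEP pool and 15.88 in the saline pool. For the use of acetate, Acss2 differed by 0.02 and Acss1 by -0.24. A second Acss1 probe differed by -1.65, so the size for this gene is uncertain. Catalase, Cat, which can oxidise ethanol in peroxisomes with hydrogen peroxide, differed by 0.37.

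The partners of microsomal P450 enzymes did not go one way. Por, the reductase that supplies CYP2E1 with electrons, was 1.46-fold lower (11.32 in the EEP pool against 11.86 in the saline pool), with 1 probe. Cyb5a, cytochrome b5, was 1.37-fold higher (15.47 in the EEP pool against 15.02 in the saline pool), Pgrmc1, a heme-binding partner of P450 enzymes, differed by 0.41, and Cyb5r3, the cytochrome b5 reductase, by 0.36. Of all 6 genes in this list 4 lay above 0, beside 52.4% of all genes. None was 2-fold apart, and the median was 0.26. Cyb5b, counted above 0 at 0.15, differed by -0.11 by a second probe.

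Alcohol dehydrogenase makes NADH, which shuttles carry into mitochondria. Of 10 shuttle genes 8 lay below 0, beside 47.5% of all genes, with a median of -0.12. Only Got1, the cytosolic aspartate aminotransferase, was at least 2-fold lower. It read 11.67 in the EEP pool against 12.80 in the saline pool (2.19-fold lower). Mdh1, the cytosolic malate dehydrogenase, differed by -0.37, Ldha by -0.20 and Gpd2 by 0.20.

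Of other oxidoreductases of retinol and alcohols, 8 of 10 detected genes lay above 0, beside 52.4% of all genes. Their median was 0.20 and none was 2-fold apart. Rdh16, a microsomal retinol dehydrogenase, was 1.76-fold higher (10.77 in the EEP pool against 9.95 in the saline pool), and its second probe differed by 0.86. Sord, the sorbitol dehydrogenase, differed by 0.43, Rdh11 by -0.30 and Adhfe1, an iron-dependent mitochondrial enzyme of hydroxybutyrate, by 0.30 (0.16 by a second probe). Beside Adh5, all 4 genes of formaldehyde and S-nitrosoglutathione handling lay above 0, with a median of 0.44: Cbr1, a carbonyl reductase, differed by 0.55 (0.77 by a second probe), the thioredoxin reductase gene Txnrd1 by 0.45, the glutathione reductase gene Gsr by 0.43 and the S-formylglutathione hydrolase gene Esd by 0.13.

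Of 11 regulator genes of hepatocyte transcription, 5 lay above 0 and 6 below, beside 52.4% and 47.5% of all genes. Their median was -0.04. At least 2-fold higher were 2 of them, beside 3.58% of all genes and 1.75% of those detected on both arrays. The 2 were Onecut1 (12.42 in the EEP pool against 9.21 in the saline pool) and Foxa2 (12.48 in the EEP pool against 10.79 in the saline pool), each read by 1 probe. Stat5b, which carries growth hormone signals, and Dbp, a factor of the circadian clock, differed by -0.29 and -0.24. Hnf4a (0.17) and Thrb (0.05) were counted above 0 by their brightest probes, but their second probes differed by -0.40 and -0.38.

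**Figure D4:**
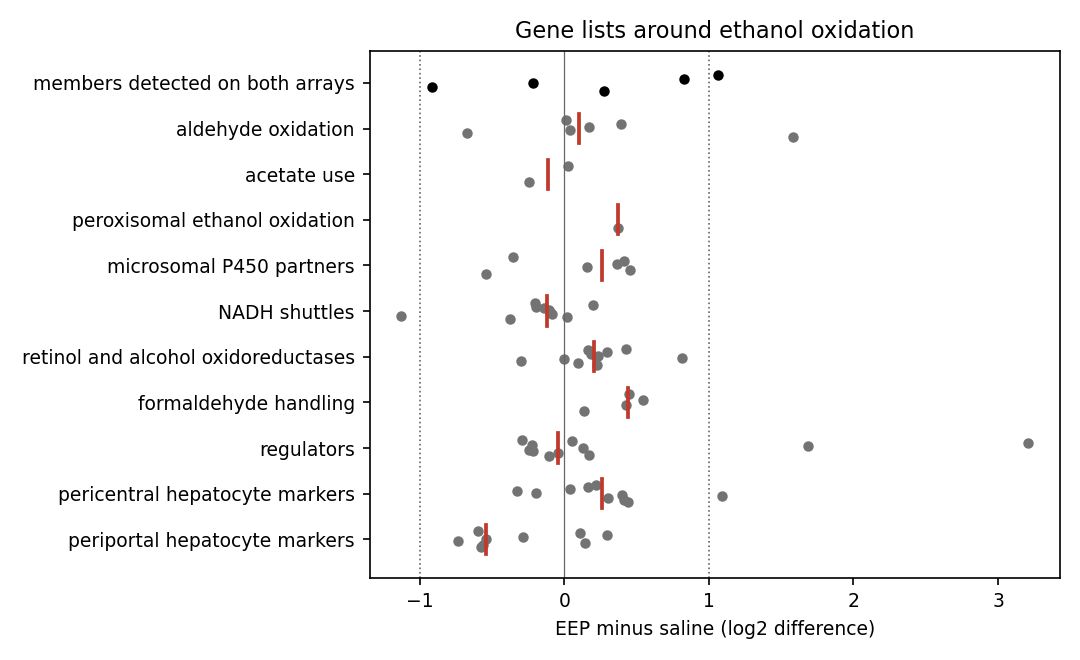
Log2 difference of the EEP pool minus the saline pool (horizontal axis) for the members detected on both arrays and for each gene of the lists around ethanol oxidation and of the markers of pericentral and periportal hepatocytes, with a red bar at the median of each list and dotted lines at 2-fold. Adh6 is not drawn, and the periportal markers have the lowest median, -0.54.

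Cyp2e1 is made mainly by hepatocytes around the central vein, so markers of that zone were set beside it. Of 10 pericentral markers 8 lay above 0, beside 52.4% of all genes, with a median of 0.26. Below 0 were Lgr5 (-0.33) and Axin2 (-0.20). Only the ammonium transporter gene Rhbg was at least 2-fold higher (8.49 in the EEP pool against 7.41 in the saline pool). Glutamine synthetase, Glul, differed by 0.44 (0.13 by a second probe), Cyp1a2 by 0.41 (0.20 by a second probe) and the glutamate transporter gene Slc1a2 by 0.40. Of 9 periportal markers 6 lay below 0, beside 47.5% of all genes, with a median of -0.54. The 7 hepatocyte markers had a median of -0.11. Cyp2e1, at 1.06, lay further from 0 than 9 of the 10 pericentral markers. In pooled whole tissue, fewer cells of a kind and less RNA per cell cannot be told apart, and the part of these zones in the Cyp2e1 value was not tested.

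Markers of cells other than hepatocytes also differed between the pools. All 6 listed macrophage markers were lower by their brightest probes, beside 47.5% of all genes, with a median of -0.73. These probes ranged from -2.53 (Marco, a scavenger receptor) to -0.42, and a second Cd163 probe differed by -0.11. Signals of the brightest probes ran from 4.75 to 14.90 in the EEP pool and from 6.46 to 15.44 in the saline pool. The list is not complete, and not all macrophage genes were lower. Outside it, Adgre1 differed by 0.05 and Cd14 by 0.60. The 3 detected stellate cell markers lay between 0.26 and 0.55, and second probes of Lrat and Reln differed by 0.69 and 0.75. The 4 endothelial markers lay between -0.63 and 0.10. The 2 detected T and NK cell markers lay at -0.88 and -0.46, and the 2 detected cholangiocyte markers at -0.66 and 0.67. Cd3e and Klrb1b of the T and NK list and Sox9 of the cholangiocyte list were detected on neither array, and Krt7 and Acta2 had no probe under their symbols. Their part in the values of the members was not tested.

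For each member detected on both arrays, the genes with the closest pair of log2 signals were found, which over 2 arrays says only that both signals were alike. Closest to Cyp2e1 were Serpina3l, Cyp3a2 and Gsta1, with differences of 0.68, 1.13 and 0.71, at distances of 0.38, 0.38 and 0.42 log2 units. Adh1c had Mif, Spp2 and Sod1 (differences of 0.28, 0.27 and 0.16). Adh4 had Napsa, Fkbp5 and Cebpd (-1.04, -0.79 and -0.72), Adh7 had RGD1560208, Etfa and Mrpl18 (0.87, 0.73 and 0.62), and Adh5 had Adgrf5, Kyat1 and Stx6 (-0.20, -0.23 and -0.19).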

How the data were processed

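Per the labels' protocols, 6 liver RNA samples per group were pooled, and Cy3-labelled cRNA of each pool went onto 1 Agilent array. The submitters' processing notes name Agilent Feature Extraction 9.5. The authors deposited normalised log2 values for 41012 probes, with a letter P, M or A and a linear fold ratio per probe; P was taken as detected. Once sorted, both columns matched to within 0.0255 log2 units, as after quantile normalisation; the background correction was not given in the sources. The deposited ratio equals 2 to the power of EEP minus saline within 1.84e-07 log2 units. The deposited series matrix repeats these log2 values, rounded, for 23054 probes, all with P on both arrays (column medians 7.53 for EEP and 7.52 for saline).

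The planned scaling of scanner signals was not needed, since both arrays already had the same 75th percentile, 7.94. Symbols were updated by Entrez gene ID to GRCr8 (20959 of 21871 probes with a symbol matched). Each gene was read by its brightest detected probe. The members, the lists and the rules for naming genes were chosen with earlier results of these data known. Named were all members, up to 4 genes furthest from 0 per list, and the 3 nearest genes. Outside these rules, Alb and Aldh2 were named for their roles and neighbours on chromosome 2 for their position. Adgre1 and Cd14 were named after values were seen, because they did not go the way of the macrophage list. Some list genes were also named because their sign or a second probe differed. The position of neighbouring probes and the promoter comparison were added after values were seen. A nominal bound for a gene with P on 1 array compared its bright signal with the dim signal. Where the lowest P signal of the dim array was higher, that was used in place of the dim signal. With 1 array per group no test was run, and the number of arrays limits the precision. Upstream sequences of RefSeq (250 bases, all 6 members matched) were aligned locally (match 2, mismatch -3, gap opening -5, extension -2). Counting, loess centring and the robust SD were tested on simulated data. Python 3.11.15, numpy 2.4.6, pandas 2.3.3, statsmodels 0.14.6, Biopython 1.88 and matplotlib 3.10.9 were used.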

Additional observations from a re-analysis of the deposited data

How the results depend on the processing

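The 6 member differences were recomputed 40 times, with median centring, loess centring, the series matrix values, the mean over probes, 50 signal units added, detection on both arrays and no detection filter. Most of these could not move a gene with 1 probe: the array medians were equal, the series matrix holds the same values rounded, and the detection filters and the mean over probes leave the same probe. Loess centring and the added units could move one. No value changed sign, and those of Adh1c, Adh4, Adh5, Adh7 and Cyp2e1 moved by at most 0.03 log2 units. Adh6 moved in 1 setting, to -4.82 with 50 signal units added, which shrinks differences of dim signals; it has no value in the series matrix or with detection on both arrays. The number of genes at least 2-fold higher and lower, 427 and 607, became 195 and 297 with the series matrix, 192 and 295 with detection on both arrays and 129 and 162 with 50 units added. Without a detection filter they were 663 and 903. At 1.5-fold the counts were 963 and 1218, and at 3-fold 206 and 287. No paired analysis was possible because each group has 1 pool. What limits Adh6 is the EEP signal, which lies under the lowest detected value, so its fold has no upper end.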
